A study of Mus musculus with 2 samples.

Results

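The genes described here are 10 genes that astrocytes switch on when they become reactive, namely Lcn2, Cd44, Timp1, Hspb1, Emp1, Steap4, Aspg, Ggta1, Srgn and A2m. They were found by symbol in the annotation of the deposited expression table, and all 10 were present, out of 30920 genes in all. Each was measured by a single probe set of between 21 and 37 probes that the annotation classes as unique to its gene. The study compared 1 male C57BL/6 mouse given the treatment label Control with 1 male C57BL/6 mouse given the label Cuprizone, a copper chelator that kills oligodendrocytes when fed to mice. RNA labelled cerebellum was measured on a whole-transcript microarray, the Mouse Gene 2.0 ST array of Affymetrix, and read as log2 expression. The titles of both samples say mouse brain and do not name the cerebellum. The labels describe a diet with 0.2% cuprizone for 6 weeks and attach that sentence to both animals. The groups were therefore taken from the treatment labels, which give no age and do not explain the tag CPZ-5 in the title of the cuprizone sample.

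With 1 array per group, differences have no SD and were not tested, and they hold for these animals rather than for the diet. Precision is limited by the number of arrays. Markers specific to cerebellar neurons did not bear out the cerebellum label. Gabra6, a receptor subunit of granule cells, had levels of 1.84 (control) and 1.97 (cuprizone), and the Purkinje cell gene Pcp2 had 3.18 and 3.69, all within background. Calb1, a calcium buffer of Purkinje cells and of many forebrain neurons, was above it at 6.94 and 6.82, as were Drd2 and Rgs9, genes of striatal neurons. Tissue is given below only as labelled. In RNA from whole tissue, more cells of a type and more RNA per cell cannot be told apart.

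Astrocytes respond to injury and inflammation by changing shape and turning on genes that are silent or faint in healthy brain. Work in mice sorts these genes into a pan-reactive set seen after many injuries, a set first seen after systemic lipopolysaccharide (called A1) and a set first seen after stroke (called A2). Signals from activated microglia and cytokines that act through gp130 and STAT3 are known inducers. Of the 10 genes, Lcn2, Steap4, Timp1, Hspb1, Cd44 and Aspg belong to the pan-reactive set, Ggta1 and Srgn to the A1 set and Emp1 to the A2 set. A2m, a protease inhibitor of the acute phase response, belongs to none of them. Several of the 10 are also made by other cells, among them Srgn and Cd44 by leukocytes and Lcn2 by neutrophils.

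A2m was the only one of these genes that differed by 2-fold or more, and 6 of the 10 were within background on both arrays, a share near that of all genes. Background was read from 1459 genes for olfactory and vomeronasal receptors, which are nearly silent in brain. The upper end of their central 95% was 4.68 for the control array and 4.71 for the cuprizone array. Aspg lay above that bound on both arrays, A2m, Ggta1 and Srgn lay above it on the cuprizone array alone, and Lcn2, Cd44, Timp1, Hspb1, Emp1 and Steap4 lay within background on both. Of all genes 54.6% lay within background on both. Within background were 9 of the 10 in the control and 6 in the cuprizone sample.

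Of the 10 genes, 8 had a higher value on the cuprizone array and 2 a lower one, where 48.1% of all genes had a higher value. A single gene, 1 of 10, was at least 2-fold higher, where 0.34% of all genes were, and 0 of 10 were at least 2-fold lower, where 0.194% were. At a threshold of 1.5-fold the counts were 3 higher and 1 lower, where 2.85% and 2% of all genes were. The median difference, cuprizone minus control on the log2 scale, was 0.24 over the 10 genes and 0.00 over all genes, and it was 0.17 over the 8 genes other than A2m and Ggta1. Values within background carry little information, so the counts were repeated with each such value raised to its array's background bound. Then A2m alone remained past either threshold, 1 of 10 genes, where 0.0517% of all genes passed 2-fold and 0.343% passed 1.5-fold in that direction.

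**Figure D1:**
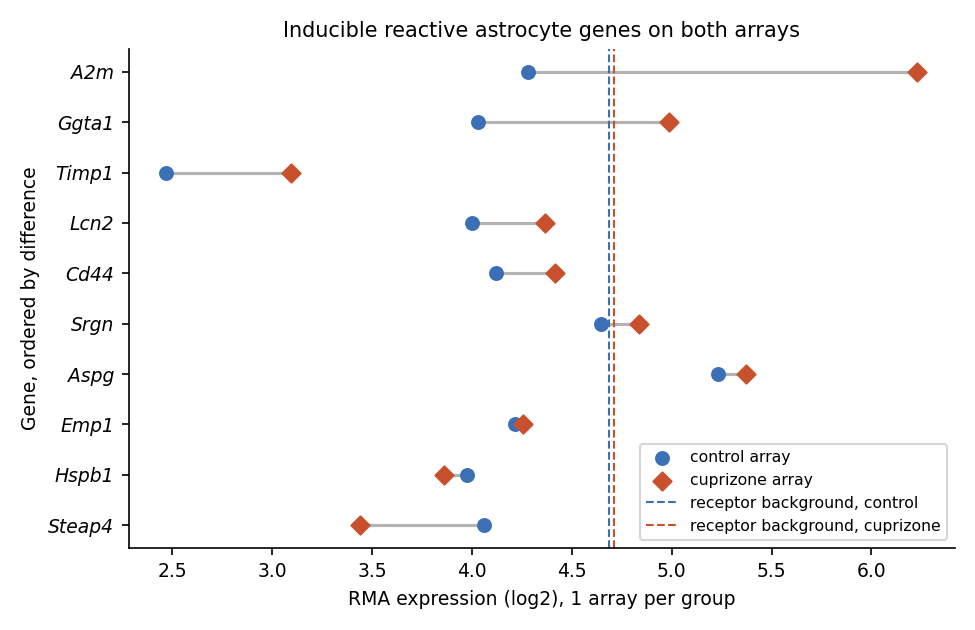
Log2 RMA expression of the 10 reactive astrocyte genes on the control array (circles) and the cuprizone array (diamonds), 1 array per group, ordered by difference; dashed lines mark the upper end of the receptor background, 4.68 and 4.71. A2m moves from 4.28 to 6.23 and Ggta1 from 4.03 to 4.98 across the background, and 6 genes stay to the left of both lines.

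A2m encodes alpha-2-macroglobulin, a large secreted protein that traps proteases and is cleared through the receptor Lrp1. The array annotation places it on the plus strand of chromosome 6 from 121636173 to 121679238, in a build not given in the sources used here. The control array read 4.28 (log2), within background, and the cuprizone array 6.23. The measured difference was 1.95, or 3.86-fold, and against the upper end of the control background the gene was at least 2.92-fold higher. The lower bound on its difference was 1.54. No receptor gene had a measured difference as large as 1.95 in either direction, their central 95% running from -0.64 to 0.82. A second background was stricter. It used 23 antigenomic control probe sets, whose sequences are designed to match no mouse transcript. They ranged from 0.93 to 6.08 in the control and from 1.01 to 6.07 in the cuprizone sample, with medians of 2.40 and 2.29. On each array 7 of the 23 lay above the receptor bound, and the highest of the 23 was taken as the stricter bound. A2m on the cuprizone array was the single value of the 10 genes above the highest of these controls, and against that control the bound was at least 1.11-fold.

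No relative or partner of A2m listed for comparison differed by 2-fold. Pzp, the pregnancy zone protein and a close homologue, was at 4.14 on both arrays. Mug1 and Mug2, the murinoglobulins and also homologues, were at 3.25 and 3.31 and at 3.10 and 2.73. All 3 homologues were within background on both arrays. Cd109, a membrane-anchored member of the family that also belongs to the A2 set, was at 3.39 and 3.92, within background too. Lrp1, the clearance receptor, was well above background and differed by 0.02, and its chaperone Lrpap1 by -0.02. Within 300 kb on either side of A2m the annotation lists 4 other genes, Mug1 among them, whose differences ran from -0.07 to 0.23.

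Ggta1, like A2m and Srgn, was within background on the control array and above it on the cuprizone array. It encodes the galactosyltransferase that makes the alpha-gal sugar epitope, which mice carry and humans lack, and it lies on the minus strand of chromosome 2 from 35400179 to 35463231. The control array read 4.03, within background, and the cuprizone array 4.98. The difference was 0.96, or 1.94-fold as measured, but at least 1.23-fold against the control background. Of the 1459 receptor genes 24 had a measured difference of at least that size in either direction. Among the other genes of sugar transfer listed for comparison, Gbgt1 differed by 0.45 and St6gal1 by 0.38, both above background on both arrays. Both lay between the lower bound of 0.30 for Ggta1 and its measured 0.96, so they cannot be ranked against it. The 11 other genes within 300 kb ran from -0.39 to 0.48.

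The 250 bases before the RefSeq start of Ggta1 (GRCm38.p6, minus strand, chr2:35461450-35461699) are shown because, with values in background raised to its bound, Ggta1 had the largest difference of the genes with a promoter in the RefSeq table. That start lies inside the longer span that the array annotation gives. The sequence is printed with a TATAAA match on the opposite strand in capitals:
Ggta1: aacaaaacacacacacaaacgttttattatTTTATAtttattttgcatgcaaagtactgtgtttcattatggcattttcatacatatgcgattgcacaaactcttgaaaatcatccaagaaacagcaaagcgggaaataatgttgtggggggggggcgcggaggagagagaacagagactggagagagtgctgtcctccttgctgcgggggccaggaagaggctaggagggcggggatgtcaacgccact
That match ends 215 bases before the start, and TATAAA was found on either strand in 12.4% of 32851 promoter windows of this length. Of the other motifs searched on both strands, the STAT motif TTCNNNGAA, the AP-1 motif TGANTCA, an NF-kB motif, a heat shock element (alternating TTC and GAA triplets), an interferon motif (a pair of GAAA blocks) and the antioxidant motif TGACNNNGC, none was found in this window.

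Srgn, the other gene of the A1 set, encodes serglycin, the proteoglycan core protein of secretory granules in blood-derived cells. It lies on the minus strand of chromosome 10 from 62493833 to 62527451. Its control value of 4.65 was just within background and its cuprizone value of 4.84 just above it. The measured difference was 0.19 and the gene was at least 1.11-fold higher. Among 11 proteoglycan genes the differences ran from -0.32 for Sdc4, a syndecan, to 0.27 for Sdc1, another syndecan that was within background on both arrays, so Srgn lay inside the range of its class.

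Aspg, annotated as an asparaginase, was the one pan-reactive gene of the 10 above background on both arrays, and it was nearly level. It lies on the plus strand of chromosome 12 from 112106683 to 112127573. Its levels were 5.23 (control) and 5.37 (cuprizone), a difference of 0.14 or 1.10-fold. Of 1459 receptor genes 960 differed at least as far. Asns, the enzyme that makes asparagine, differed by -0.04, and the largest value among 9 genes of asparagine and lysophospholipid turnover was 0.39 for Lpcat2, a lysophospholipid acyltransferase.

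The remaining pan-reactive genes were within background on both arrays, so their differences have no fold and no direction that these arrays can resolve. Timp1, the secreted inhibitor of matrix metalloproteinases, lies on the plus strand of chromosome X from 20870166 to 20874737, inside the span of the neuronal gene Syn1. It read 2.47 in the control and 3.09 in the cuprizone sample, a difference of 0.62. Both levels lay well within background, and 132 receptor genes differed at least as far. Syn1, the synapsin gene around it, was at 8.51 and 8.33.

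Lcn2, a secreted lipocalin that binds iron-loaded siderophores, is among the genes most often used to mark reactive astrocytes. It lies on the minus strand of chromosome 2 from 32384633 to 32387797. It read 4.0 in the control and 4.37 in the cuprizone sample, a difference of 0.37, and 366 receptor genes differed at least as far. Slc22a17, reported as a receptor for Lcn2, was far above background at 8.22 and 8.08, and Lrp2, another reported receptor, was within background at 3.65 and 4.23.

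Cd44, the surface receptor for hyaluronan, lies on the minus strand of chromosome 2 from 102811141 to 102901665. It was at 4.12 and 4.42, a difference of 0.30. The hyaluronan synthases Has1, Has2 and Has3 were within background on both arrays as well, with differences of -0.11, 0.17 and -0.17. Spp1, osteopontin, another ligand of Cd44, went from 4.30, within background, to 4.82, higher by at least 0.14.

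Hspb1 and Steap4 were the 2 genes with a lower value on the cuprizone array. Hspb1, a small heat shock protein that keeps unfolded proteins soluble, lies on the plus strand of chromosome 5 from 135887919 to 135889896 and was at 3.97 and 3.86, a difference of -0.11. Steap4, a membrane reductase of iron and copper, lies on the plus strand of chromosome 5 from 7960472 to 7982213 and was at 4.06 and 3.44, a difference of -0.62. Of the receptor genes 135 differed at least as far in either direction. Steap2, above background on both arrays, differed by -0.09, while Steap1 was within background on both and Steap3 on the cuprizone array. Over the 10 genes together the annotation lists 127 neighbours within 300 kb. Of these 4 were at least 1.5-fold higher and 1 lower, where 2.85% and 2% of all genes were. The 4 higher ones, Upk3b, Gm22214, Gprc5d and A730018C14Rik, were within background on both arrays.

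Emp1, a small membrane protein of the PMP22 family and the single gene of the A2 set here, was within background on both arrays. It lies on the plus strand of chromosome 6 from 135362931 to 135383173 and read 4.21 in the control and 4.25 in the cuprizone sample, a difference of 0.04. Its relative Emp3 was above background at 5.34 and 5.78, a difference of 0.44, while Emp2 differed by -0.43 and Pmp22, a myelin protein of peripheral nerve, by -0.20.

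Emp1 and Steap4 were the genes with a STAT motif in the 250 bases before their start, and neither was above background. Promoter windows of 9 of the 10 genes were found by gene ID. There were 11 windows, because Emp1 and Srgn have 2 each. The STAT motif TTCNNNGAA was in 2 of the 11, that of Steap4 and the window of Emp1 shown here, and in 7.02% of 32851 windows. The sequences (RefSeq, GRCm38.p6, plus strand, chr6:135362681-135362930 for Emp1 and chr5:7960222-7960471 for Steap4) are shown with each STAT motif in capitals:
Emp1: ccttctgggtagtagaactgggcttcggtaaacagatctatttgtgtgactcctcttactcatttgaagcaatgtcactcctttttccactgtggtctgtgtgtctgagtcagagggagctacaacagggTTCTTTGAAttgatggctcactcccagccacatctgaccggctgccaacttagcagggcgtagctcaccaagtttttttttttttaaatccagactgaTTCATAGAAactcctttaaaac
Steap4: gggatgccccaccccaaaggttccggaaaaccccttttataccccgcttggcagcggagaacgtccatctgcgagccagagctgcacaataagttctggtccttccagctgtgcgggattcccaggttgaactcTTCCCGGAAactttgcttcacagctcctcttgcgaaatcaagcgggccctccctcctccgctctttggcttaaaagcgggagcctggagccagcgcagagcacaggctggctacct
Emp1 held the motif 2 times, from 120 to 112 and from 22 to 14 bases before its start, the latter overlapping an AP-1 motif TGANTCA, and Steap4 held it from 116 to 108 bases before its start. Emp1 was the single gene of the 9 with an AP-1 motif (6.75% of all windows) and Steap4 the single one with an NF-kB motif (7.25%). The interferon motif was found for Srgn (2.98% of all windows), but only in its window at chr10:62507758-62508007. That window lies inside the span of the array annotation and not at its start. The antioxidant motif TGACNNNGC was found for Emp1 and Aspg (10.2%), and the heat shock element for none of the 9, Hspb1 included (0.466%). A match is a description of these letters, and its absence says nothing of the factor.

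**Figure D2:**
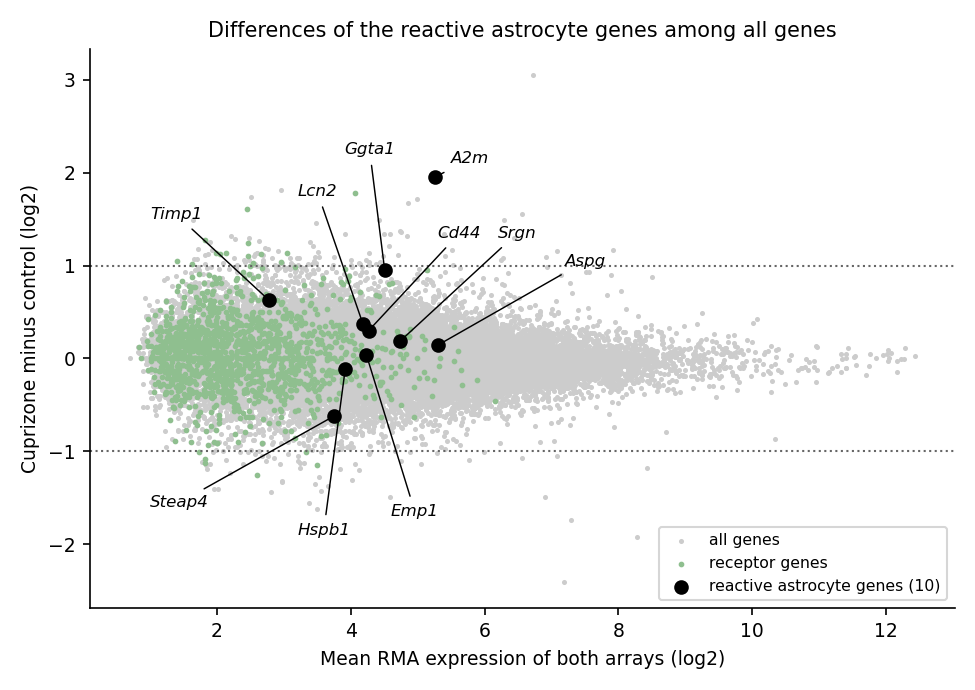
Difference of each of 30920 genes (cuprizone minus control, log2) against its mean log2 level on both arrays, with 1459 receptor genes in green and the 10 reactive astrocyte genes as labelled black points; dotted lines mark 2-fold. A2m at 1.95 stands clear of the cloud and Ggta1 at 0.96 lies at its upper edge, while the other 8 lie inside it.

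A list of 7 further pan-reactive genes had 6 above background on both arrays, where 1 of the 6 pan-reactive genes described above was. Its median difference was 0.93, which became 0.55 with poly-A spike-in scaling and 0.02 with values raised to the highest antigenomic control. Serpina3n went from 5.20 to 8.26. Gfap, the intermediate filament of astrocytes, went from 7.33 to 8.50 and Vim, its partner filament, from 7.09 to 8.02. Osmr, the oncostatin M receptor, went from 4.93 to 6.10. In this list 3 of 7 genes were at least 2-fold higher, whereas S1pr3, a sphingosine-1-phosphate receptor, and Cp, the copper ferroxidase ceruloplasmin, differed by 0.06 and -0.12. Cxcl10, a chemokine, was within background at 3.61 and 4.09. Whether this list differs from the 10 genes was not tested.

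No further gene of the A1 or A2 set on the array differed by 2-fold. Of 9 further A1 genes on the array 8 were higher and 1 lower, where 48.1% of all genes were higher. Their median was 0.39 and 4 were above background. That median became 0.02 with poly-A spike-in scaling and also with background values raised to their bound. It was -0.01 with values raised to the highest antigenomic control. Serping1, the complement C1 inhibitor, went from 5.03 to 5.56. Amigo2, an adhesion molecule, went from 4.79 to 5.19 and Psmb8, a subunit of the immunoproteasome, from 4.71 to 5.05. Gbp2, an interferon-induced GTPase, was within background at 3.81 and 4.51. Of 11 further A2 genes 6 were higher and 4 lower with a median of 0.07, and 8 were within background on both arrays. Tgm1, a transglutaminase, went from 4.95 to 5.42, and Ptgs2, the inducible cyclooxygenase, from 5.07 to 4.89.

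Genes of resting astrocytes had no such pattern. All 15 were above background on both arrays, 6 were higher and 9 lower, and their median was -0.12. Slc1a3, a glutamate transporter, differed by 0.28, Aqp4, the water channel of astrocyte endfeet, by 0.06, and Slc7a10, an amino acid transporter, by -0.55. The level of these genes differed by under 1.5-fold in each case.

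Markers of microglia and other myeloid cells mostly had higher values in the cuprizone sample. Of 16 such markers 15 were higher on the cuprizone array, 5 by at least 2-fold (3 with background values raised to their bound). The median was 0.64, falling to 0.26 with poly-A scaling and to 0.01 with values raised to the highest antigenomic control, and their summed level on the linear scale went from 807 to 1314. Cd68, a lysosomal protein of phagocytes, went from 5.79 to 7.34 and Lyz2, the lysozyme of myeloid cells, from 4.72 to 6.06, whereas P2ry12, a receptor of resting microglia, differed by 0.11. Within background were 4 of the 16 in the control and 1, Tmem119, in the cuprizone sample. Their part in the values of A2m, Ggta1, Srgn and Cd44 was not tested.

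Among other cells that can make Lcn2, Srgn, Timp1 or Cd44, the markers of neutrophils and lymphocytes were mostly at background. Of 11 neutrophil markers 10 were within background on both arrays, S100a8 (2.21 and 2.48), S100a9 (3.62 and 3.14) and Ngp (3.94 and 4.07) among them. Also within background were the markers with the largest differences, Cxcr2 (3.95 and 4.56) and Ly6g (2.31 and 2.91), each higher by 0.60. Of the 11 markers 5 were higher and 6 lower, and their summed linear level was 138 and 139. Of 10 markers of T cells and natural killer cells 9 were within background on both arrays, with sums of 178 and 189. Fibroblast and meningeal markers, 10 of 11 above background, had a median of 0.19 and sums of 618 and 716. Endothelial and mural markers, 11 of 12 above background, had a median of -0.31 and sums of 1097 and 964. The part of these cells in the 10 genes was not tested.

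**Figure D3:**
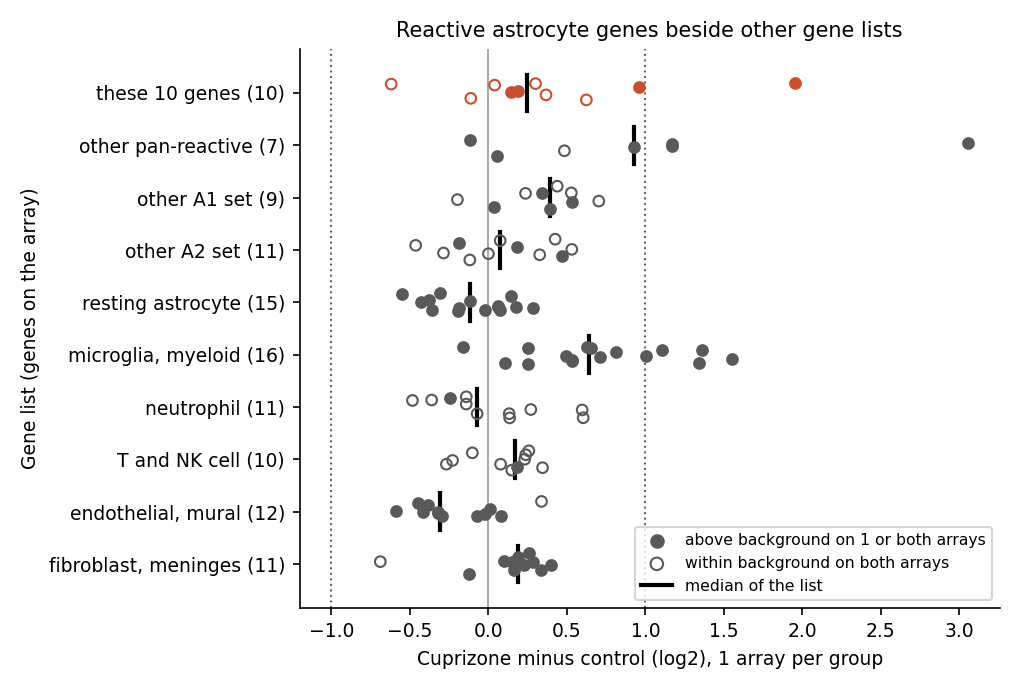
Differences (cuprizone minus control, log2) of the genes of 10 lists, 1 point per gene, with filled points above the receptor background on 1 or both arrays, open points within it on both, and black bars for medians. The 10 genes spread from -0.62 to 1.95 around 0.24, with 6 open points, while 6 of 7 other pan-reactive genes are filled and have a median of 0.93.

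Relatives and partners of the background-level genes were themselves well expressed in several cases. Among the metalloproteinase inhibitors, Timp2 and Timp3 were at 6.92 and 7.05 and at 7.14 and 7.22. Timp4, the family member of resting brain and heart, went from 5.61 to 4.91, a difference of -0.70. Of 12 metalloproteinase genes and Timp1 partners the largest values were -0.52 for Mmp24 and 0.45 for Cd63, a surface partner of Timp1, and Mmp3, Mmp9, Mmp12 and Mmp13 were within background.

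The small heat shock family had a median of -0.10 over 10 genes, with Cryab, alpha-B-crystallin, at 7.22 and 6.87 and Hspb6 at 6.03 and 6.32. Targets of the heat shock factor, fixed as a check on Hspb1, had 2 higher and 8 lower of 10, a median of -0.13 and a largest value of -0.35 for Hspa4l.

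Inducers of these genes were partly above background. Of 13 genes of gp130 and STAT3 signalling on the array 8 were higher and 5 lower, with a median of 0.09. Osmr had the largest difference and Stat3, the transcription factor of the pathway, differed by 0.56, whereas Il6st, the shared gp130 receptor, differed by 0.02. Socs3, its feedback inhibitor, was within background at 4.19 and 4.28, as were the cytokines Il6, Lif and Osm. Of 12 genes of interleukin-1, TNF and NF-kB signalling 10 were higher, where 48.1% of all genes were, and 6 were within background on both arrays. Their median was 0.25. It became 0.02 with background values raised to their bound, -0.02 with hybridization spike-in scaling and -0.13 with poly-A scaling. Nfkbia, the inhibitor of NF-kB, differed by 0.59 and C1qa, a complement chain of microglia, by 0.65. Il1a, Il1b and Tnf were within background on both arrays.

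The sign of the small differences depended on how the arrays were scaled. A level trend was fitted by lowess on the 16559 genes whose higher value reached the median of all values. It was then subtracted from all genes, so its shifts for fainter genes rest on no fit to them. The median of all genes was 0.00 as deposited and -0.14 after removal of that trend. It was -0.26 and -0.38 when the arrays were scaled on hybridization and on poly-A spike-in controls. With those scalings 7, 5 and 3 of the 10 genes had a higher value on the cuprizone array in place of 8, where 32.1%, 16.1% and 8.76% of all genes did in place of 48.1%. Each spike-in scaling subtracts a single constant from every gene, so these falls follow from the shift. A2m, Ggta1 and Timp1 kept a higher value, and Hspb1 and Steap4 a lower one, under all 6 scalings and tables run (these, median centring, quantile normalization and the other deposited table), though the last 2 and Timp1 lay within background. Under the antigenomic bound Ggta1 had no value left to read. Lcn2, Cd44, Aspg and Srgn changed sign with a spike-in scaling alone, and Emp1 with the lowess trend as well. A2m ranged from 1.57 to 1.96 and Ggta1 from 0.58 to 0.96. Relative to the median of all genes the median of the 10 was 0.24 as deposited, and a constant shift cannot change it. That excess was 0.30 with lowess and 0.23 with quantile normalization. It was 0 with values raised to the receptor bound or to the antigenomic one, where genes under the bound set both medians.

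**Figure D4:**
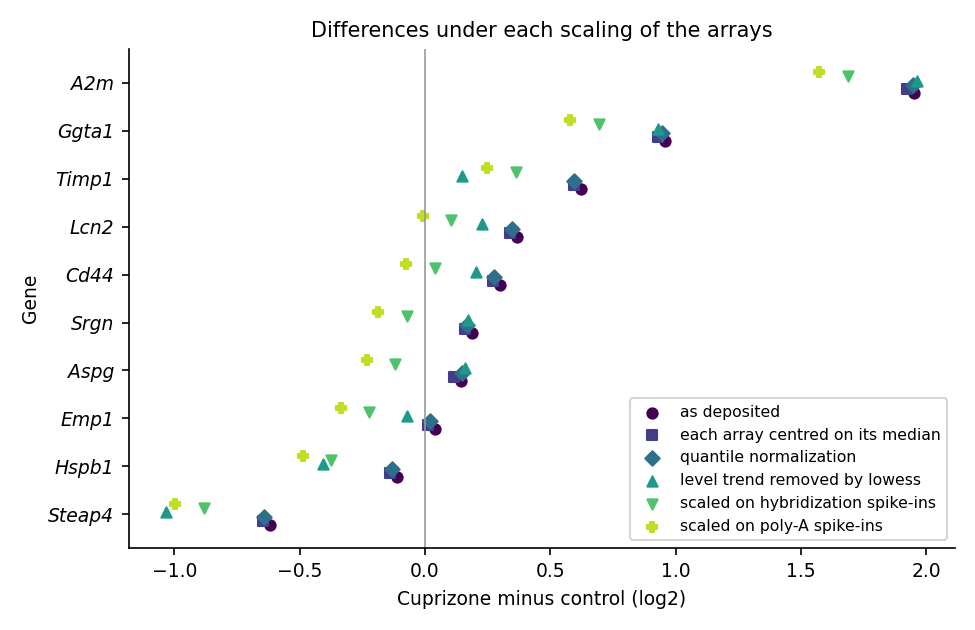
Difference of each of the 10 genes (cuprizone minus control, log2) as deposited and under 5 scalings of the arrays, 1 symbol per scaling. A2m stays between 1.57 and 1.96 and Steap4 below 0, while the symbols of Lcn2, Cd44, Srgn, Aspg and Emp1 fall on both sides of 0.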

How the data were processed

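Log2 values for 41345 probe sets were deposited by the authors. The submitters' processing notes name RMA and Affymetrix Power Tools, with no version. RMA equalises the distribution of signals across arrays, so a shift of total RNA would be removed. The genome build was not given in the sources used here, nor was the annotation release. The pair of deposited tables agreed to within 5e-05. Array medians were 4.33 and 4.36.

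Symbols came from the table's annotation. For genes with several probe sets the one with the highest mean was taken. All 10 gene IDs matched RefSeq (GRCm38.p6). Differences are cuprizone minus control with no further centring, and a value within background was raised to its bound for every fold written "at least". Counts past 2-fold were checked on simulated data with planted differences. All planted differences lay past that threshold and the added noise could not reach it, so the check covers the code alone. The genes, lists, motifs and alternatives were chosen with earlier results of these data known, and the antigenomic bound was added after the values were seen. All 10 genes are named, as are the pan-reactive genes Gfap, Vim, Serpina3n and Osmr, and family relatives. Up to 3 genes per list with the largest differences were to be named, which was not kept to in every list. Among resting astrocyte genes Fgfr3 (-0.43) and Acsbg1 (-0.38) were left out while Slc1a3 and Aqp4 were named. Some lists, such as the endothelial and fibroblast markers, have no gene named. Any other gene was named with its values in view. Python 3.11.15, pandas 2.3.3 and statsmodels 0.14.6 were used.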

Additional observations from a re-analysis of the deposited data

How the results depend on the processing

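The count of genes at least 2-fold higher was 1 of 10 under every scaling and with the receptor bound. The share of all genes was 0.34% as deposited, 0.275% with median centring, 0.113% with lowess and 0.281% with quantile normalization. That share was 0.0841% when scaled to the hybridization spikes, 0.042% when scaled to the poly-A spikes and 0.0517% with the receptor bound. The other deposited table and the mean of probe sets could not change the count. Each of the 10 genes has 1 probe set, and the deposited tables agreed to within 5e-05. With values under the highest antigenomic control raised to it the count was 0, where the share was 0.0194%. The count at least 1.5-fold higher was 2 in place of 3 with lowess and with hybridization spike-in scaling. It was 1 with poly-A spike-in scaling and with the receptor bound, and 0 with the antigenomic bound. The median difference was -0.13 in place of 0.24 with poly-A scaling, which lowers every gene by 0.38, and -0.02 with hybridization scaling, which lowers every gene by 0.26. With the receptor bound the median was 0.02 and with the antigenomic bound -0.01, each equal to the median of all genes there. Raising both values of a gene to a bound leaves no difference to read, so such genes were given no value of their own. In counts and medians, those of the other lists included, they were kept at the difference between the bounds of the arrays. That difference was 0.02 for the receptor bound and -0.01 for the antigenomic one. Filters on the higher value and on the mean kept 6 and 4 of the 10 genes, with medians of 0.33 and 0.57, and a gene could pass through the cuprizone array alone, as A2m did for the higher value, so they are no check on its count. No paired analysis was possible because each group holds 1 sample, and for the same reason no array could be left out. The level of background limits 6 of the 10 genes, and the causes of these changes other than by construction were not tested.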
